A study of Mus musculus with 5 samples.

Results

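Thrombospondins are secreted, calcium-binding glycoproteins of the extracellular matrix. The vertebrate family falls into a trimeric subgroup, Thbs1 and Thbs2, whose chains carry type 1 repeats, and a pentameric subgroup, Thbs3, Thbs4 and Comp, whose chains lack them. The trimers are known for cell-matrix signalling, collagen fibril assembly and inhibition of vessel growth. The pentamers are structural: COMP, cartilage oligomeric matrix protein, is abundant in cartilage and tendon and binds several collagens there, and human mutations in it cause the dwarfing disorder pseudoachondroplasia. Every probe set annotated to 1 of these 5 genes and no other was taken, which gave 7 of the 22690 probe sets on the arrays, for 5 of 12393 genes: 2 each for Thbs1 and Thbs2, and 1 each for Thbs3, Thbs4 and Comp.

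The series compared whole tibio-femoral (knee) joints of 3 pools of mice null for both epiphycan (Epyc) and biglycan (Bgn), 2 small leucine-rich proteoglycans of skeletal matrix, with 2 wildtype pools. All animals were 3-month-old males of a hybrid C57/Bl6:129 strain, and each pool joined the 6 joints of 3 mice on 1 Affymetrix array. No joints lacking a single gene of the pair were analysed here, so the part of either gene cannot be told apart. The values were held in 2 tables, called array types here: type A has double-null pool 3 and wildtype pool 2, and type B has double-null pools 1 and 2 and wildtype pool 1. Because joints were taken whole, more cells of a type and more RNA per cell cannot be told apart in any value below.

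Levels are the deposited MAS5 signals, on a linear scale, with 2% trimmed means close to 250.1 on every array. Each difference is a log2 fold change (double-null over wildtype) fitted to quantile-normalised log2(signal + 32) with the array type as a term. The added constant makes the change of dim genes look smaller. The labels held for the targeted genes: over the 3 Bgn probe sets the signals lay between 7.05 and 224 on the double-null arrays and between 2003 and 4063 on the wildtype arrays. On the double-null arrays 1416405_at kept 204 to 224, while 1437889_x_at and 1448323_a_at read 7.05 to 67.6. Epyc, with a single probe set, read 10.8, 3.38 and 1.29 in double-null pools 1 to 3 and 91.2 and 78.8 in wildtype pools 1 and 2. The tissue label was checked with 8 cartilage markers, all of which lay above the highest of 27 controls for Bacillus genes, absent from mouse RNA, on each array. Each of the 7 thrombospondin probe sets did so too. This bar is low: the highest control read 27.5 to 63.5, where the array medians were 106 to 120. Passing it shows signal over background and does not single out a tissue.

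The log2 fold change was positive for all 7 thrombospondin probe sets (median 0.57), where the median over all 22626 probe sets other than array controls was -0.0039 and 49.2% were positive. Thbs4 and Comp showed the greatest differences, at 2.03-fold and 1.77-fold. For Thbs2, Thbs3, Thbs4 and Comp, with 5 of the 7 probe sets, the lowest double-null array exceeded the highest wildtype array, while Thbs1 overlapped between the genotypes on both of its probe sets. Over all probe sets 9.24% were apart in this direction on the normalised values. None of the 7 passed an adjusted p of 0.05 in limma with Benjamini-Hochberg adjustment over 22626 probe sets, where 0.0265% passed. At an unadjusted p under 0.05, 4 of the 7 were higher, those of Thbs2, Thbs4 and Comp, against 2.93% of all probe sets. Without double-null pool 3 this count was 2, Thbs4 and Comp, against 4.33% of all probe sets, since neither Thbs2 probe set then reached it. Leaving out wildtype pool 2 gave the same fold changes. With 10 ways to split the 5 arrays, the smallest p that an exact permutation test of a single probe set allows is 0.1.

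**Figure D1:**
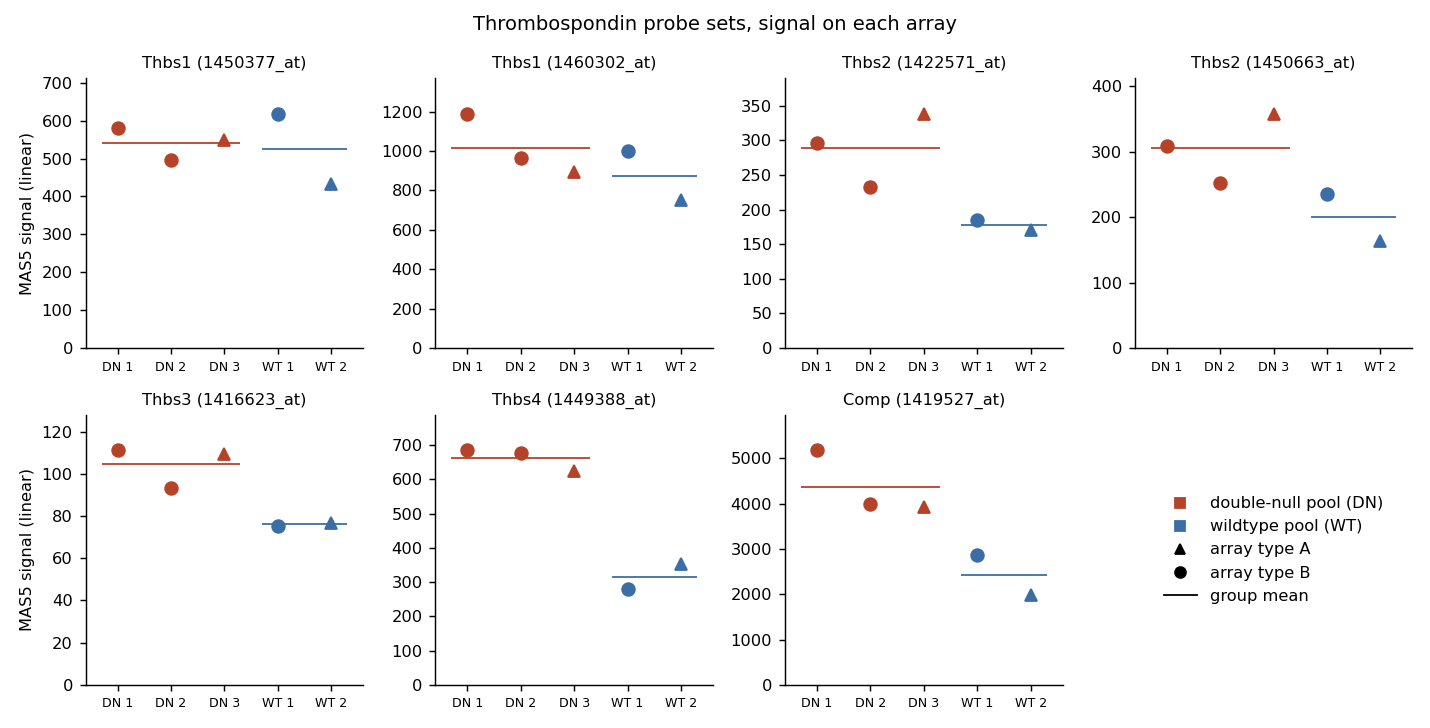
MAS5 signal (linear axis from 0) of each thrombospondin probe set on the 5 arrays, double-null pools (red) left of wildtype pools (blue), with lines at the group means, triangles for array type A and circles for array type B. The double-null points lie above the wildtype points for Thbs2, Thbs3, Thbs4 and Comp and mix with them for Thbs1. On Thbs2 1450663_at the nearest points of the genotypes differ by a factor of only 1.07.

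Sequence around the annotated transcription start was at hand for Thbs4, Thbs3 and Thbs2, 3 members whose signals were apart between genotypes, and is shown so that these start regions can be compared. The windows are from RefSeq on GRCm38.p6 and run from 250 bases before to 50 bases after the start, each printed on the strand of its gene. They are chr13:92794769-92795068 on the minus strand for Thbs4, chr3:89214930-89215229 on the plus strand for Thbs3 and chr17:14694213-14694512 on the minus strand for Thbs2. Capitals mark CANNTG, the E-box core bound by basic helix-loop-helix factors, and TATAAA, the TATA box core, each searched on both strands.
Thbs4: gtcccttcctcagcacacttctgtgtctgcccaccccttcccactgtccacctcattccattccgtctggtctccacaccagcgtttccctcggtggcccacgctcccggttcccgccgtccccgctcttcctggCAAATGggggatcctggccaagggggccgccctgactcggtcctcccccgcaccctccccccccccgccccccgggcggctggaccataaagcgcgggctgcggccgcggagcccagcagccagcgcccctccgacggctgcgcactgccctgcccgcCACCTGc
Thbs3: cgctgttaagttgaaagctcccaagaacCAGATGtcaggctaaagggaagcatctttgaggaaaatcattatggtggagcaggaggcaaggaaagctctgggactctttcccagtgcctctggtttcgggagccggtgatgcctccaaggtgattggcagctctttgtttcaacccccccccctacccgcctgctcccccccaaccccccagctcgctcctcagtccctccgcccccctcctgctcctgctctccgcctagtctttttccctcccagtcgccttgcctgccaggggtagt
Thbs2: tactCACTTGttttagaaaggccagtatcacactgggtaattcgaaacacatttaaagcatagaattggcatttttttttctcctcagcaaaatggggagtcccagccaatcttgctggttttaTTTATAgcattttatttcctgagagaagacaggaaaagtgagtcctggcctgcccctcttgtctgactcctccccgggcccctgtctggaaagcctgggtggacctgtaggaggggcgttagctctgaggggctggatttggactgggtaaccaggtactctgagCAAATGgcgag
The Thbs4 window was 72.0% G and C and held CANNTG at bases 136 to 141 and 294 to 299. The Thbs3 window was 59.0% G and C with a single CANNTG at bases 29 to 34. The Thbs2 window was 48.3% G and C and held CANNTG at bases 5 to 10 and 290 to 295, and TATAAA on the opposite strand at bases 125 to 130, which reads TTTATA as printed. Over 32851 promoter windows of 300 bases the median was 52.7% G and C, 72.3% held CANNTG and 13.6% held TATAAA. The matches do not overlap each other and are a description of these letters, not of binding.

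Among the pentamers, Thbs4, a thrombospondin of tendon, muscle and their junction, had the largest log2 fold change. Its signals were 684, 675 and 625 in double-null pools 1, 2 and 3, against 279 and 352 in wildtype pools 1 and 2. The 3 double-null pools lay close together, and the lowest of them was 1.77 times the highest wildtype pool. Means were 661 ± 32.2 in double-null joints (SD, n = 3) and 316 ± 51.9 in wildtype joints (n = 2). The log2 fold change was 1.02 ± 0.16 (SE), with a 95% interval from 1.56-fold to 2.64-fold. It ranked number 31 by p of the 22626 probe sets and did not pass (limma unadjusted p = 0.00046, adjusted p = 0.33). The difference was 0.79 between the type A pools and 1.19 between the type B pools. Where 1 probe set per gene was tested and dim genes were left out, the adjusted p of Thbs4 was 0.0545 over 7436 genes, of which 0.0807% passed upward.

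Comp, whose product bridges collagen fibrils in cartilage and tendon, had signals of 5180, 3988 and 3934 in double-null pools 1, 2 and 3, against 2857 and 1989 in wildtype pools 1 and 2. Double-null pool 1 was the highest array and wildtype pool 2 the lowest, and the lowest double-null pool was 1.38 times the highest wildtype pool. Comp averaged 4367 ± 704 in double-null joints and 2423 ± 614 in wildtype joints (SD, n = 3 and 2). The log2 fold change was 0.83 ± 0.18 (SE), with a 95% interval from 1.31-fold to 2.40-fold, and did not pass (limma unadjusted p = 0.0030, adjusted p = 0.57). The type A pools differed by 0.98 and the type B pools by 0.71.

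Thbs3, a pentamer expressed in developing cartilage and bone, lay at percentile ranks of 38.0 to 51.3 among all probe sets of its arrays. Its signals were 111, 93.2 and 109 in double-null pools 1, 2 and 3, against 75.5 and 76.6 in wildtype pools 1 and 2. The genotypes did not overlap, with a gap of 1.22 times between the nearest pools. The log2 fold change was 0.38 ± 0.22, and its 95% interval from -0.13 to 0.90 held both no difference and a level 1.87-fold higher (limma unadjusted p = 0.12, adjusted p = 0.92). Between type A pools it was 0.36, and between type B pools 0.40.

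Among the trimers, Thbs2, a regulator of collagen fibril assembly and an inhibitor of vessel growth, was higher on both of its probe sets. On 1422571_at the signals were 296, 232 and 338 in double-null pools 1, 2 and 3, against 184 and 171 in wildtype pools 1 and 2. On 1450663_at they were 309, 251 and 358 in double-null pools 1, 2 and 3, against 236 and 164 in wildtype pools 1 and 2. Both probe sets put double-null pool 3 highest and wildtype pool 2 lowest, and on the second the nearest pools of the 2 genotypes differed by a factor of only 1.07. The log2 fold changes were 0.66 ± 0.20 for 1422571_at and 0.57 ± 0.23 for 1450663_at (limma unadjusted p = 0.015 and 0.045, adjusted p = 0.80 and 0.91). The type A pools differed by 0.89 and 1.01 on these probe sets, and the type B pools by 0.48 and 0.24. The probe sets read the same RNA and are not replicates of each other.

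Thbs1, the trimer of platelets and wounds and an activator of latent TGF-beta, did not separate the genotypes. On 1460302_at, its brighter probe set, the signals were 1190, 966 and 896 in double-null pools 1, 2 and 3, against 998 and 751 in wildtype pools 1 and 2. On 1450377_at they were 580, 497 and 549 in double-null pools 1, 2 and 3, against 619 and 433 in wildtype pools 1 and 2, so that wildtype pool 1 was the highest of all 5 arrays. The log2 fold changes were 0.14 ± 0.14, with a 95% interval from 0.87-fold to 1.40-fold, and 0.026 ± 0.18, with a 95% interval from 0.76-fold to 1.37-fold (limma adjusted p = 0.98 and 0.997). On 1450377_at the direction turned with the table: the type A pools differed by 0.34 and the type B pools by -0.21. A further probe set, annotated to both Pald1 and Thbs1 and therefore not counted here, also overlapped between genotypes, with 1772, 1457 and 1120 in double-null pools 1 to 3 and 1107 and 1229 in wildtype pools 1 and 2.

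**Figure D2:**
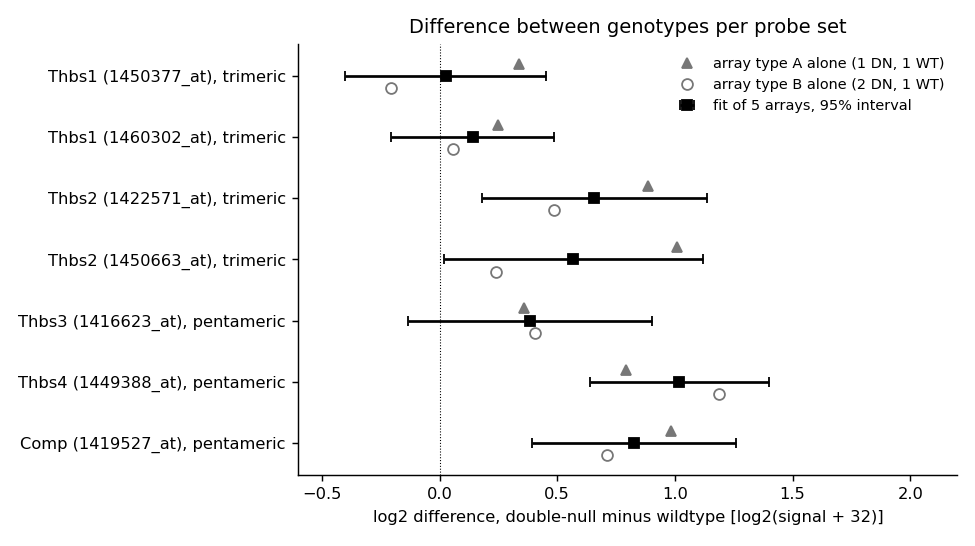
Log2 difference of each probe set, double-null minus wildtype, with its 95% interval from the fit of 5 arrays (squares) and the differences within array type A (triangles) and array type B (open circles). The intervals of Thbs4, Comp and both Thbs2 probe sets lie above 0 before adjustment, those of Thbs3 and Thbs1 include 0, and the array types stand furthest apart for Thbs2 1450663_at.

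The pentameric and trimeric subgroups were then set side by side, with the brightest probe set of each gene averaged within a subgroup. The mean log2 level of Thbs3, Thbs4 and Comp, centred over the 5 arrays, was 0.45, 0.21 and 0.24 in double-null pools 1, 2 and 3, against -0.44 and -0.47 in wildtype pools 1 and 2. That of Thbs1 and Thbs2 was 0.26, 0.0091 and 0.18 in double-null pools 1, 2 and 3, against -0.012 and -0.45 in wildtype pools 1 and 2. The double-null pools were thus above both wildtype pools for either subgroup, widely for the pentamers and narrowly for the trimers. With array type as a term, the double-null minus wildtype difference was 0.74 for the pentamers and 0.35 for the trimers, and the pentamers exceeded the trimers by 0.39, with a residual SD between arrays of 0.20. This excess was 0.081 between type A pools, which is also its value without wildtype pool 1, and 0.62 between type B pools. It is a description of these genes, without a test. Within the trimers Thbs2 was apart between genotypes and Thbs1 was not, and within the pentamers Thbs3 had the smallest difference. Differences between single members were not tested.

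**Figure D3:**
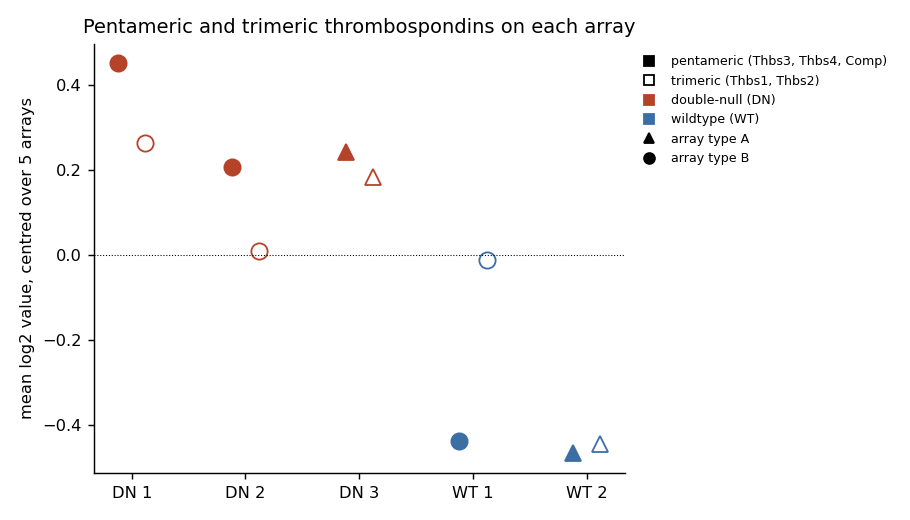
Mean normalised log2 value of the pentameric (filled) and trimeric (open) thrombospondins on each array, centred over the 5 arrays, double-null pools (red) left of wildtype pools (blue). The pentamers sit at 0.21 to 0.45 in double-null pools and at -0.44 and -0.47 in wildtype pools, while the trimers of wildtype pool 1, at -0.012, lie next to those of double-null pool 2, at 0.0091.

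Profiles over the 5 arrays were compared by the root mean square difference between centred log2 values, for which smaller means more alike. Between members the closest pair was Thbs1 and Thbs3, at 0.18, and the most distant Thbs1 and Thbs4, at 0.47. By this distance, which also follows how far a gene moves, the profiles did not sort by subgroup. Thbs4 and Comp were 0.29 apart: wildtype pool 1 was the lowest array for Thbs4, and wildtype pool 2 the lowest for Comp. Among 7435 other genes above the 40th percentile of intensity, the profile nearest to that of Thbs4 was Dpt, encoding dermatopontin of the dermal and tendon matrix, at 0.082, followed by Npy, a neuropeptide, at 0.12 and Ncapg2, a condensin subunit, at 0.14. The median distance of all these genes from Thbs4 was 0.53. Dpt read 1386, 1482 and 1295 in double-null pools 1, 2 and 3, against 644 and 691 in wildtype pools 1 and 2. For Comp the nearest were Col6a3, a collagen VI chain, at 0.065, Tm4sf1, a tetraspanin-like membrane protein, at 0.069 and Htra1, a secreted serine protease, at 0.11, with a median of 0.50. Col6a3 read 1899, 1267 and 1349 in double-null pools 1, 2 and 3, against 913 and 607 in wildtype pools 1 and 2. By deposited signal this is the order of arrays of Comp, except that double-null pools 2 and 3 changed places. On the centred log2 values compared here, Comp was at 0.17 in double-null pool 2 and 0.25 in double-null pool 3. The nearest to Thbs2 were Mllt1, Bcat2 and Col4a2 at 0.092 to 0.096, to Thbs3 Gbp7, Lman1 and Pheta2 at 0.032 to 0.049, and to Thbs1 Nr2f6, Itga3 and Csf2rb2 at 0.028 to 0.038. Profiles that move little are close to many genes, and 5 arrays are few, so these are neighbours in these libraries only.

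Receptors of thrombospondins showed no common difference. The list held Cd36 and Cd47, which bind type 1 repeats and the C-terminal domain, Lrp1 and Calr, which act with Thbs1 in cell detachment, the calcium channel subunit Cacna2d1, and integrin chains. Among 9 measured genes 5 values were positive and 4 negative, and the median was 0.013, against -0.012 over the 12393 genes measured by their brightest probe set. None passed, where 0.0161% of genes did, and none reached an unadjusted p under 0.05. The smallest unadjusted p belonged to Cd36 (0.31 ± 0.21), Cacna2d1 (0.42 ± 0.30), Itga5 (-0.27 ± 0.21) and Lrp1 (0.13 ± 0.18). Cd47 read 2955, 2713 and 2977 in double-null pools 1, 2 and 3, against 2849 and 3011 in wildtype pools 1 and 2, which overlapped.

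The matrix partners of COMP did not move as a group. Among 14 measured genes 6 values were positive and 8 negative. Their median was -0.051, with 0.35 between type A pools and -0.23 between type B pools. On the normalised values the genotypes were fully apart with double-null higher for 4 of them and lower for 2, as for 8.92% and 10.8% of all genes. Fn1, encoding fibronectin, was at 0.83 ± 0.16 and Col14a1, a collagen of the fibril surface, at 0.87 ± 0.22, while Col9a1, a chain of cartilage collagen IX, was at -0.42 ± 0.14 and Dcn, encoding decorin, at 0.36 ± 0.18. The adjusted p of these 4 lay between 0.48 and 0.92 (limma). Dcn and Matn4, counted above as apart and higher, overlapped between genotypes in the deposited signals. Col2a1, the main collagen of cartilage, read 4246, 4394 and 5704 in double-null pools 1, 2 and 3, against 10257 and 3731 in wildtype pools 1 and 2, so its wildtype pools lay on either side of all double-null pools. Comp, by comparison, was higher in the double-null pools in either table.

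Of 20 other genes listed for proteins with type 1 repeats, 12 were measured, 7 with positive and 5 with negative values and a median of 0.16. None passed, where 0.0161% of genes did. At an unadjusted p under 0.05 there were 3 higher and 1 lower, where 2.87% and 2.53% of genes were. Spon1, encoding F-spondin, read 166, 122 and 111 in double-null pools 1, 2 and 3, against 54.6 and 70.9 in wildtype pools 1 and 2 (0.82 ± 0.26). Rspo2, a Wnt-enhancing R-spondin, was at 0.64 ± 0.23, and Adamts5, an aggrecanase, at -0.49 ± 0.20. Thsd1 had the largest value, 0.98 ± 0.26, but exceeded the highest Bacillus control on only 2 arrays. Both wildtype signals, 9.33 and 19.4, and that of double-null pool 2, 30.8, lay below it, so the size of this value depends on the added constant.

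Proteases listed for cleaving COMP or thrombospondins gave 5 positive and 3 negative values among 8 measured genes, with a median of 0.13. Htra1 read 1022, 789 and 791 in double-null pools 1, 2 and 3, against 438 and 365 in wildtype pools 1 and 2, apart between genotypes, at 1.01 ± 0.15 (limma adjusted p = 0.33). Elane, the neutrophil elastase, was at -0.32 ± 0.14, Adamts4 at 0.52 ± 0.24 and Mmp9 at -0.28 ± 0.14. Adamts4 exceeded the highest control on only 3 of the 5 arrays, and Adamts7, which is known to degrade COMP, on 1 array only. Genes of TGF-beta activation and response gave 7 positive and 2 negative values among 9, with a median of 0.13, where 47.6% of all genes were positive. None passed, where 0.0161% of genes did. On the normalised values 3 were fully apart and higher and 0 lower, against 8.92% and 10.8% of genes. At an unadjusted p under 0.05 there was 1 higher, against 2.87%. The smallest unadjusted p belonged to Ltbp3 (0.49 ± 0.15) and Ltbp1 (0.48 ± 0.26), which hold latent TGF-beta in the matrix, the receptor Tgfbr2 (0.24 ± 0.14), and the ligand Tgfb2 (0.37 ± 0.23). Ccn2, a TGF-beta target, was at 0.00043 ± 0.20.

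**Figure D4:**
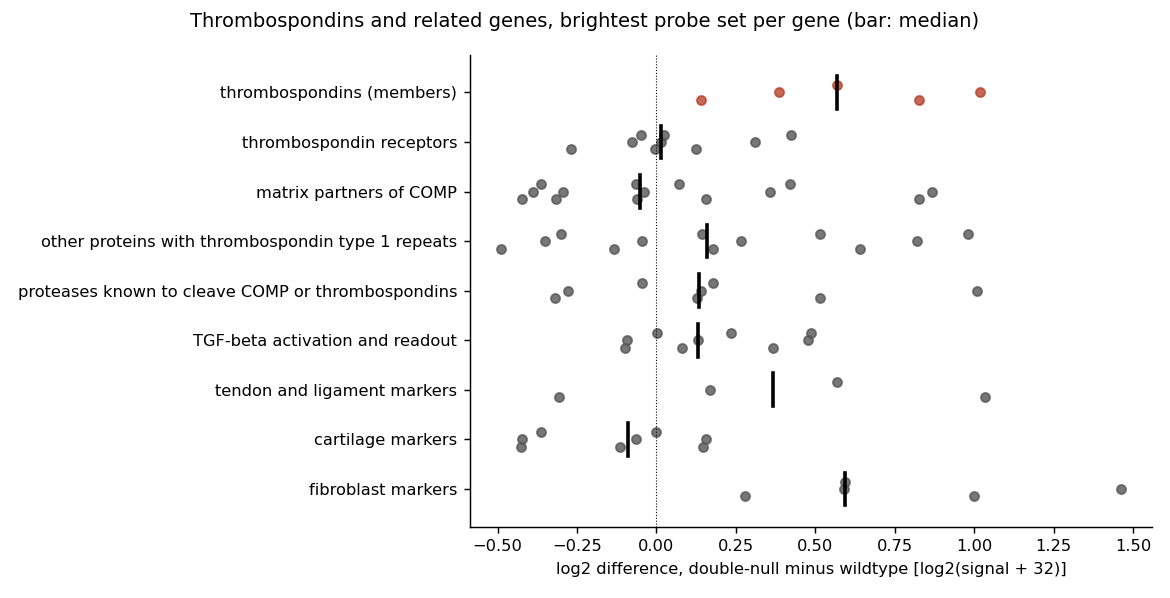
Log2 difference, double-null minus wildtype, of each gene by its brightest probe set, for the thrombospondins (red) and for related lists and markers (grey), with a bar at each list's median. The 5 thrombospondins lie between 0.14 and 1.02 and the 5 fibroblast markers between 0.28 and 1.46, while receptors, COMP partners and cartilage markers spread to both sides of 0.

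Markers of the cells that a whole joint holds were summed beside these values. The 5 fibroblast markers (Col3a1, Dpt, Pdgfrb, Thy1 and Pdgfra) moved with Thbs2, Thbs3, Thbs4 and Comp: all 5 were fully apart and higher in the double-null pools, as 8.92% of all genes were, with a median of 0.59 and summed signals of 10541 to 12431 in double-null pools and 4644 to 5005 in wildtype pools. Without Col3a1 the sums were 2359 to 2426 in double-null pools and 1349 to 1423 in wildtype pools. None of the 5 passed adjustment over all probe sets, where 0.0161% of genes did. The list was chosen with earlier results of these data known, so its count beside 8.92% is a description. The part of fibroblasts in the thrombospondin values was not tested. Of the tendon and ligament markers 4 of 5 were measured and 3 were positive, with a median of 0.37 and sums of 856 to 1296 in double-null pools and 866 to 870 in wildtype pools. Within this list Tnmd, encoding tenomodulin, was at 1.03 ± 0.23 and apart between genotypes, Fmod overlapped, and Scx and Kera each exceeded the highest control on only 2 arrays. Cartilage markers gave 2 positive values and 6 negative ones (median -0.090), with medians of 0.24 between type A pools and -0.40 between type B pools. Their sums were 8422 to 10082 in double-null pools, against 15315 in wildtype pool 1 and 7523 in wildtype pool 2. Of these 8 genes 2 were fully apart and lower in the double-null pools, as 10.8% of all genes were: Col9a1 (-0.42 ± 0.14, limma unadjusted p = 0.020) and Cnmd, encoding chondromodulin (-0.43 ± 0.18, unadjusted p = 0.049), both opposite in sign to Comp and neither past adjustment. Platelet and megakaryocyte markers, listed because platelets store Thbs1, overlapped between genotypes for all 7 measured genes, where 8.92% of all genes were apart and higher and 10.8% apart and lower, with sums of 13143 to 14907 in double-null pools and 12894 to 13165 in wildtype pools. Skeletal muscle markers, which Thbs4 can accompany, ran from 30706 to 72934 in double-null pools and from 51477 to 60026 in wildtype pools. Double-null pool 2 had the lowest muscle sum and double-null pool 3 the highest, and Thbs4 read 675 and 625 in the same pools. The part of muscle in the Thbs4 values was not tested. Medians were 0.0082 for endothelial, 0.012 for adipocyte, -0.017 for erythroid, -0.066 for osteoblast and osteocyte, and -0.098 for macrophage markers, and each of the 20 genes measured in these 5 lists overlapped between genotypes, against the same 8.92% and 10.8% of all genes apart.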

How the data were processed

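RNA from whole joints was labelled with biotin by in-vitro transcription, per the labels' protocols. The deposited values are linear signal intensities per probe set. MAS5 made them, per the submitters' processing notes, with a version and scaling target not given in the sources used here. No detection calls were at hand, so signal over background was judged from 27 Bacillus control probe sets (highest signal on any array, 63.5). The number of arrays limits the precision. Replicates are separate pools of animals, and no array duplicated another: log2 values correlated at 0.966 to 0.974 between arrays, across probe sets, which are not independent replicates.

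Signals were transformed as log2(signal + 32), quantile normalised over 5 arrays and fitted with limma 3.58.1 in R 4.3.3 (lmFit, eBayes with an intensity trend, array type as a term, 2 residual and 4.57 prior degrees of freedom). The test was two-sided over 22626 probe sets without a filter, and adjusted p-values (Benjamini-Hochberg) under 0.05 passed. The contrast is thus taken within tables, which the authors scaled array by array. The code was tested on simulated data. The platform annotation gave 20393 probe sets 1 gene symbol, 691 several and 1606 none, and Entrez numbers brought 20364 symbols up to RefSeq on GRCm38.p6. All 7 thrombospondin probe sets lay above the 40th percentile of mean intensity, a signal near 77.7.

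The members and gene lists were chosen with earlier results of these data known. Named genes are all members, the 2 targeted genes, up to 4 genes with the smallest p per related list and the 3 nearest profiles per member. Other genes (Cd47, Col2a1, Matn4, the control comparisons of Thsd1 and Adamts4, Adamts7, Ccn2 and single markers) were named after their values were seen. Alternatives were other scalings, pseudocounts (1 and 128), filters (40th and 60th percentile), 1 probe set per gene (above the 40th percentile of 12393 genes, near 98.5), no array type term, array type B alone, a replicate block, no intensity trend, averaging of a gene's probe sets, and leaving out each array. Protein sequences were not used here.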

Additional observations from a re-analysis of the deposited data

How the results depend on the processing

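The count of thrombospondin probe sets past the threshold was 0 in limma under every alternative that kept 2 wildtype pools. Without double-null pool 3 no probe set of any gene passed, so the count of 0 was fixed there. Under the rest 0.0133% to 0.21% of those tested passed. The lowest adjusted p of any member was 0.0545, for Thbs4 with 1 probe set per gene. Thbs3 was tested neither there nor with the filter at the 60th percentile. The 1-probe-set test sets its 40th percentile over 12393 genes, a signal near 98.5, and Thbs3 averaged 92.0, above the value of 77.7 over all probe sets. At an unadjusted p under 0.05 there were 4 on all 5 arrays with the main settings. Over all probe sets 2.93% were higher at this level. Without double-null pool 3 there were 2, Thbs4 and Comp, against 4.33%. There were 3 of 7 with the higher pseudocount, the replicate block, no intensity trend or without double-null pool 1, against 2.78% to 3%. With 1 probe set per gene there were 3 of the 4 members tested, against 3.52%. The other alternatives that kept 2 wildtype pools gave 4, against 2.62% to 3.38%. Of these, the filter at the 60th percentile tested 6 members and the rest 7. Thbs4 stayed between 0.79 and 1.19 and Comp between 0.71 and 0.98 over all alternatives, with adjusted p from 0.0545 to 0.955 and from 0.109 to 0.955. Thbs2 ranged from 0.48 to 0.89 on 1422571_at and from 0.24 to 1.01 on 1450663_at, Thbs3 from 0.21 to 0.52, and Thbs1 1460302_at from 0.058 to 0.26, none changing sign. Thbs1 1450377_at turned to -0.21 on array type B alone. The same contrast results without wildtype pool 2 or double-null pool 3, because the remaining type A array then adds nothing to it. Leaving out single arrays gave -0.21 to 0.34. There the pentameric minus trimeric difference moved to 0.62, and leaving out single arrays gave 0.081 to 0.62. Its 9 other alternatives stayed within 1 residual SD of 0.39. The filters and the 1-probe-set test leave the fold changes as they are and change only the genes tested. Double-null and wildtype pools share the numbers 1 and 2, and deviations from group means correlated at 0.0074 and -0.11 in these pairs. The deviations of the 2 wildtype pools mirror each other and also separate the array types. These values therefore cannot settle whether the numbers pair the pools. With a replicate block in place of array type the count of thrombospondin probe sets past the threshold was also 0, Thbs4 was 1.04 and Comp 0.92, and the subgroup difference was 0.42. Thbs3 reached its ends, 0.52 and 0.21, at the lower and the higher pseudocount.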
